A study of Mus musculus with 18 samples.

Results

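Claudins are the membrane proteins that form the strands of tight junctions, and 10 claudin genes were followed here through 18 injured mouse kidneys. The genes *Cldn1*, *Cldn2*, *Cldn3*, *Cldn4*, *Cldn7*, *Cldn8*, *Cldn10*, *Cldn12*, *Cldn16* and *Cldn19* were taken by name, as claudins known in the kidney, from 45706 genes counted by RNA sequencing. All mice were male C57BL/6 animals aged 10 to 12 weeks that had been given doxycycline for 14 days, with a washout of 1 week, and all kidneys were removed 12 h after 22.5 min of bilateral ischemia. The *Myc* line gave 5 KO and 5 control kidneys and the *Cxcl12* line 5 KO and 3 control kidneys. KO mice carried the floxed gene with Pax8rtTA and TetOCre, which together direct the recombinase to the tubule epithelium, whereas control mice carried the floxed gene and Pax8rtTA without TetOCre. Other cells of the kidney keep the floxed gene. The RNA came from whole kidneys, and no uninjured kidney is compared here, so the values describe injured kidneys that differ in genotype. The 2 floxed lines are called the *Cxcl12* and the *Myc* cohort.

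A claudin spans the membrane with its extracellular loops facing the neighbouring cell, and the set of claudins in a junction decides whether ions and water can pass between cells. Some claudins form pores and others seal the path. The kidney is known for a claudin pattern that changes from segment to segment: *Cldn2*, *Cldn12* and one form of *Cldn10* in the proximal tubule, another form of *Cldn10* with *Cldn16* and *Cldn19* in the thick ascending limb, and *Cldn3*, *Cldn4*, *Cldn7* and *Cldn8* in the distal nephron and collecting duct. *Cldn1* is a sealing claudin known from the parietal epithelium of Bowman's capsule.

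On GRCm38 these genes lie on 5 autosomes and the X chromosome, and each count covers all exons of the gene. The pore-forming *Cldn2* (ENSMUSG00000047230) is at chrX:139800828-139811386, *Cldn12* (ENSMUSG00000046798) at chr5:5489537-5514958 and *Cldn10* (ENSMUSG00000022132) at chr14:118787908-118875489. The limb genes *Cldn16* (ENSMUSG00000038148) and *Cldn19* (ENSMUSG00000066058) are at chr16:26463135-26482765 and chr4:119255414-119262438. *Cldn3* (ENSMUSG00000070473) and *Cldn4* (ENSMUSG00000047501) are neighbours at chr5:134986214-134987472 and chr5:134945119-134946934. *Cldn7* (ENSMUSG00000018569) is at chr11:69964779-69967885 and *Cldn8* (ENSMUSG00000050520) at chr16:88560828-88563183. *Cldn1* (ENSMUSG00000022512) is at chr16:26356642-26371841. The counts ignored the strand, and exons of *Cldn3* share 40 bp with *Wbscr25* and those of *Cldn19* 90 bp with *Gm12927* on the opposite strand, so a small share of their reads cannot be assigned.

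Promoter sequences from RefSeq on GRCm38.p6 are shown for *Cldn4* and *Cldn7*, whose levels moved together from kidney to kidney, and for both starts of *Cldn10*, the claudin that differed most in the *Cxcl12* cohort. RefSeq held 14 starts for 9 of the 10 claudins, without *Cldn8*. Each line gives the 250 bases before a start, 5′ to 3′ on the strand of the gene. Capitals mark the nuclear receptor half-site AGGTCA and the AP-1 site TGANTCA, read on both strands. They are *Cldn4* at chr5:134946935-134947184 on the minus strand, *Cldn7* at chr11:69964529-69964778 on the plus strand, and *Cldn10* at chr14:118787621-118787870 and chr14:118854700-118854949 on the plus strand.
Cldn4: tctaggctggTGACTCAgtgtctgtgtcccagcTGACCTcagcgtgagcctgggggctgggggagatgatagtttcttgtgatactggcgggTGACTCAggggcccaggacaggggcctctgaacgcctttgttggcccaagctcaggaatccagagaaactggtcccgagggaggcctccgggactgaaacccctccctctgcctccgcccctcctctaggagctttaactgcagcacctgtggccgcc
Cldn7: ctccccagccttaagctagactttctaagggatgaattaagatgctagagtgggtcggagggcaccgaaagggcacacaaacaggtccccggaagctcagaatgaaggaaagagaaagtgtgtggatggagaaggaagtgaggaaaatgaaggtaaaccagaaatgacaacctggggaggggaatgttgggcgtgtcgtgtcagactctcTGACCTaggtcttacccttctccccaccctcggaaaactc
Cldn10 upstream start: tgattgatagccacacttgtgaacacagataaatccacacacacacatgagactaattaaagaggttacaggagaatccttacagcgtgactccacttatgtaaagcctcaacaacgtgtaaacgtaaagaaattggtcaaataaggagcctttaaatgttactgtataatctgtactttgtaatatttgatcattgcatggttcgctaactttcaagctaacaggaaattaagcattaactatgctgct
Cldn10 downstream start: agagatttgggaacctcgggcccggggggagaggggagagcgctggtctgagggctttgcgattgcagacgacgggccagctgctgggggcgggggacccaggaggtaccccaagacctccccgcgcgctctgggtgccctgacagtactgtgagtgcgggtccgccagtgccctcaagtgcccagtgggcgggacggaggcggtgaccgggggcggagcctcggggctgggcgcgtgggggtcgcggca

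In all, 11 patterns were searched in the 250 bases before 32851 RefSeq starts, and the 2 in capitals were picked after their matches had been seen. AGGTCA was found before *Cldn4* and both starts of *Cldn7*, and before 14.02% of all starts. TGANTCA was found before *Cldn4* alone among the claudins, at 2 places, and before 6.749% of all starts. Of the other 9 patterns, the GC box GGGCGG lay before 9 of the 14 claudin starts and 32.74% of all starts. The TATA box TATAAA lay before *Cldn2* (12.37% of all starts), the HNF1 half-site GTTAAT before *Cldn1* and *Cldn10* (6.432%), the TEAD site CATTCC before *Cldn2*, *Cldn7* and *Cldn16* (12.64%) and the KLF site CCCCACCC before *Cldn3* and *Cldn7* (9.053%). No claudin start had the E-box CACGTG (6.021%), the grainyhead site AACNGGTT (1.79%) or its spellings AACCNGGTT and AACCAGTT (0.8949%), or the NF-kB site (0.3562%). Each match is a description of the letters only.

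The reads counted on genes ranged from 12918220 to 29749500 a kidney. The share of unmapped reads was under 5% in 6 kidneys, which were also the deepest (at least 22437067 reads on genes, against at most 18006784 in the others). This deeper group, set from the mapping shares and named as a batch by no label, held *Cxcl12* KO 1 and 2, *Myc* KO 3 and 5 and *Myc* control 1 and 3. It held no *Cxcl12* control. The study's methods report a calibration for batch effects with ComBat but do not name the batches. The main fits here hold no batch term, and the deeper group enters as an alternative only. *Cxcl12* averaged 32.3 ± 6.1 CPM (SD, n = 5) in its KO and 53.6 ± 7.8 CPM (n = 3) in its control kidneys, and *Myc* 30.7 ± 3.8 and 95.1 ± 15.5 CPM (n = 5 each), where CPM is the read count scaled to the size of the library with TMM factors. Summed markers of other cells were also compared. The 8 proximal tubule markers summed to 4044 to 4526 CPM in *Cxcl12* KO and 5002 to 5646 CPM in *Cxcl12* control kidneys, and the 8 tubular injury markers to 5105 to 6572 and 3206 to 4565 CPM. In the *Myc* cohort these sums overlapped. There 5 injury markers had a log2 value above 0 in the KO kidneys and 3 below it, with *Havcr1* the lowest (-1.32, edgeR adjusted p = 0.120). Markers of each nephron segment were counted in every kidney. The 7 leukocyte markers summed to 77.2 to 164 CPM in *Cxcl12* KO and 70.2 to 71.0 CPM in *Cxcl12* control kidneys, also apart, and to 179 to 273 and 101.5 to 253 CPM in *Myc* KO and control kidneys. In the *Cxcl12* cohort 5 of them had a log2 value above 0, most of all *S100a8* (1.74) and *S100a9* (1.65). The other 2, *Cd68* (-0.07) and *Adgre1* (-0.42), were below it. The 6 markers of fat and adrenal stayed at 55.9 CPM or less, with 1 of them at 0 in all kidneys.

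All 10 claudins were expressed in every kidney, with at least 72 reads for the rarest. Per kilobase of exon, the order of the median levels over the 18 kidneys was *Cldn4* (192.5 CPM per kb), *Cldn2* (110.8), *Cldn7* (47.0), *Cldn3* (25.7), *Cldn12* (24.2), *Cldn8* (17.7), *Cldn10* (14.3), *Cldn1* (9.74), *Cldn16* (5.66) and *Cldn19* (4.17). *Cldn7* lay above *Cldn3* in 18 of 18 kidneys, *Cldn2* above *Cldn7*, *Cldn10* above *Cldn1* and *Cldn1* above *Cldn16* in 17 each. The neighbours *Cldn3* and *Cldn12* (12 of 18), and *Cldn12* and *Cldn8* (13 of 18), changed places between kidneys of every group and are not separated by their spread. In other places the order went with the group. *Cldn16* exceeded *Cldn19* in all 10 *Myc* KO and control kidneys, but in 2 of 5 *Cxcl12* KO and 0 of 3 *Cxcl12* control kidneys. *Cldn4* exceeded *Cldn2* in 5 of 5 *Myc* KO and 4 of 5 *Myc* control kidneys, but in 2 of 5 *Cxcl12* KO and 0 of 3 *Cxcl12* control kidneys.

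**Figure D1:**
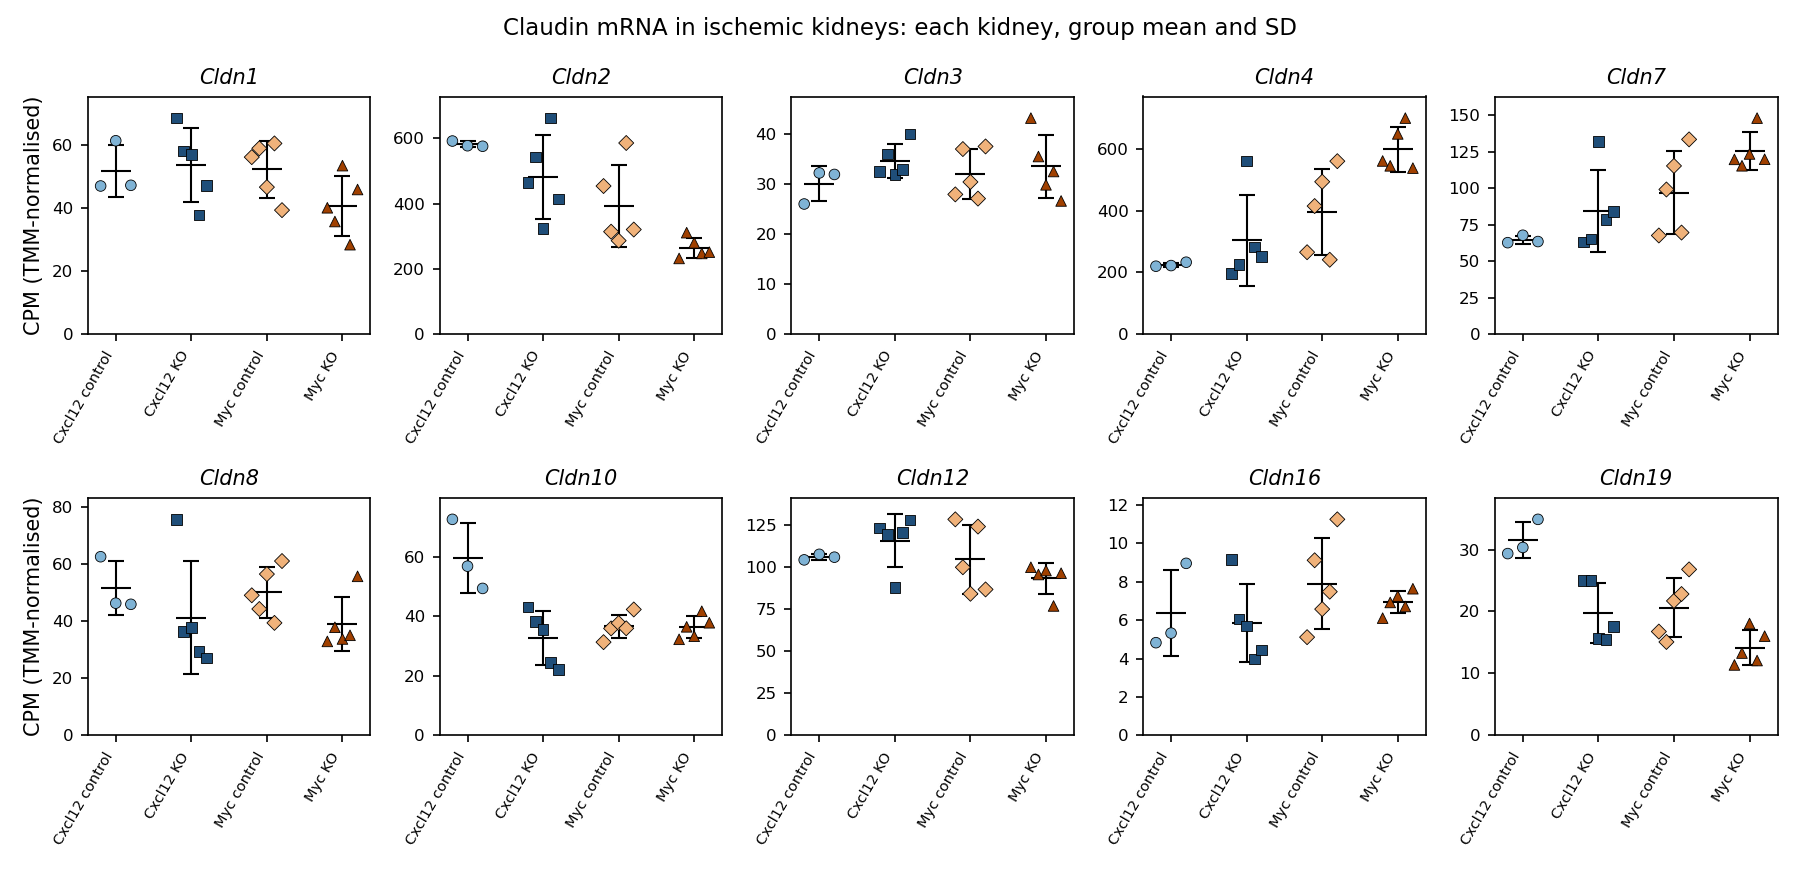
TMM-normalised CPM (vertical axes, from 0) of the 10 claudin mRNAs in each kidney of the 4 groups (horizontal axes), with the group mean and SD in black. The *Cldn10* and *Cldn19* points of all 5 *Cxcl12* KO kidneys lie below those of the 3 *Cxcl12* controls, and the *Cldn4* point of *Cxcl12* KO 3 stands at 562 CPM.

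The first comparison asked which claudins differ when *Cxcl12* is missing from the tubules. *Cldn10* and *Cldn19* were lower in all 5 KO kidneys than in all 3 controls, although neither passed the threshold of an adjusted p under 0.05. *Cldn10*, whose forms conduct sodium in the limb or anions in the proximal tubule and are summed in the gene count, had 43.2, 38.3, 35.5, 24.4 and 22.2 CPM in *Cxcl12* KO 1 to 5 and 72.7, 56.9 and 49.4 CPM in *Cxcl12* control 1 to 3. The highest KO kidney was below the lowest control. Its log2 fold change was -0.87 (SE 0.21, edgeR adjusted p = 0.122), or 1.82-fold lower. The exact two-sided permutation p of this single gene was 0.0357, where 0.0179 is the smallest that 56 splits allow. In bulk RNA, fewer cells of a type and less RNA per cell cannot be told apart.

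*Cldn19*, which works with *Cldn16* in the uptake of calcium and magnesium, had 25.0, 25.0, 15.6, 15.5 and 17.5 CPM in the KO and 29.3, 30.3 and 34.9 CPM in the control kidneys. Again the groups did not overlap, with a log2 fold change of -0.67 (SE 0.17, edgeR adjusted p = 0.140) and an exact permutation p of 0.0357. Its partner *Cldn16* had 9.15, 6.06, 5.69, 3.97 and 4.45 CPM against 4.82, 5.32 and 8.96 CPM. These groups overlapped throughout, and the log2 fold change of *Cldn16* was -0.11 with a 95% interval from -0.67 to 0.45. The 6 thick ascending limb markers summed to 2401 to 4636 CPM in KO and 3447 to 4339 CPM in control kidneys. Most of this sum was *Umod*, the uromodulin gene of the limb (2740 and 2921 CPM on average). All 6 markers had a log2 value below 0 in the KO kidneys, with 0 called. *Kcnj1*, a potassium channel of the limb, was at -0.92, *Slc12a1* at -0.64, *Egf* at -0.31 and *Umod* at -0.10 (edgeR adjusted p = 0.254, 0.467, 0.672 and 0.849). The part of the limb markers, and of the proximal tubule, injury and leukocyte sums that did not overlap, in the *Cldn10* and *Cldn19* differences was not tested.

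Across the family, 0 of 10 claudins were called by edgeR in the *Cxcl12* cohort, as were 0 of 15154 genes tested (0%). All 10 passed the filter on low counts. At an unadjusted p under 0.05 there were 2 of 10, *Cldn10* and *Cldn19*, both lower, against 13% of all genes and 6.62% that were lower. The groups did not overlap for the same 2 genes, against 9.54% of all genes and 4.78% with the KO kidneys lower. DESeq2 called both (adjusted p = 0.00728 for *Cldn10* and 0.0201 for *Cldn19*) among 2.34% of genes, and limma-voom called 0 claudins and 0% of genes. Among the kidneys outside the deeper group, 3 KO and 3 control, the log2 difference was -1.13 for *Cldn10* and -0.95 for *Cldn19*, both without overlap. In these kidneys *Cldn8* (-0.71), *Cldn4* (0.605) and *Cldn7* (0.56) did not overlap either. The share of all genes without overlap in them is not given here. The edgeR fit of those kidneys called *Cldn19* (adjusted p = 0.0171) but not *Cldn10* (adjusted p = 0.0663). With the deeper group as a covariate, edgeR called both (adjusted p = 0.0366 for *Cldn10* and 0.00751 for *Cldn19*), among 123 genes in all.

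The other claudins gave no call. *Cldn4*, a claudin of the collecting duct that raises chloride over sodium passage, had 196, 227, 562, 283 and 253 CPM in the KO kidneys and 220.4, 222 and 233 CPM in the controls. Kidney KO 3 stood apart, KO 1 lay below the controls, KO 2 among them and KO 4 and 5 above them. The log2 fold change of *Cldn4* was 0.43 (SE 0.30, edgeR adjusted p = 0.558) and 0.08 without KO 3. *Cldn7*, which occurs with *Cldn4* in the distal epithelium, had 63.0, 65.1, 132, 78.6 and 83.8 CPM against 62.7, 67.8 and 63.4 CPM, with the same kidney highest. Its log2 fold change was 0.38 (SE 0.22) and 0.16 without KO 3. *Cldn8*, which recruits *Cldn4* to the junction in the collecting duct, had 75.5, 36.3, 37.7, 29.2 and 27.1 CPM against 62.5, 46.2 and 45.8 CPM. Only KO 1 was above any control, and the log2 fold change moved from -0.32 to -0.66 without it (edgeR adjusted p = 0.656 and 0.113). Without KO 5 or control 1 it moved the other way, to -0.21 and -0.16 (edgeR adjusted p = 0.799 and 0.920).

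*Cldn2*, the cation and water pore of the proximal tubule, had 464, 543, 323, 662 and 414 CPM in *Cxcl12* KO and 592, 577 and 575 CPM in *Cxcl12* control kidneys. The controls differed by little, with an SD of 8.79 CPM, whereas the KO kidneys had an SD of 128.7 CPM and lay on both sides of them. The log2 fold change of *Cldn2* was -0.28 (95% interval -0.64 to 0.09), -0.17 without KO 3 and -0.42 without KO 4. *Cldn12*, a calcium-permeable claudin, had 123, 119, 87.9, 121 and 128 CPM against 104, 108 and 106 CPM, with KO 3 alone below the controls. *Cldn1* ranged from 37.7 to 68.4 CPM against 46.9 to 61.3 CPM, and *Cldn3*, a sealing claudin, from 31.8 to 40.0 CPM against 25.96 to 32.2 CPM. The log2 fold changes were 0.13 for *Cldn12*, 0.05 for *Cldn1* and 0.20 for *Cldn3*, all with intervals that include 0.

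**Figure D2:**
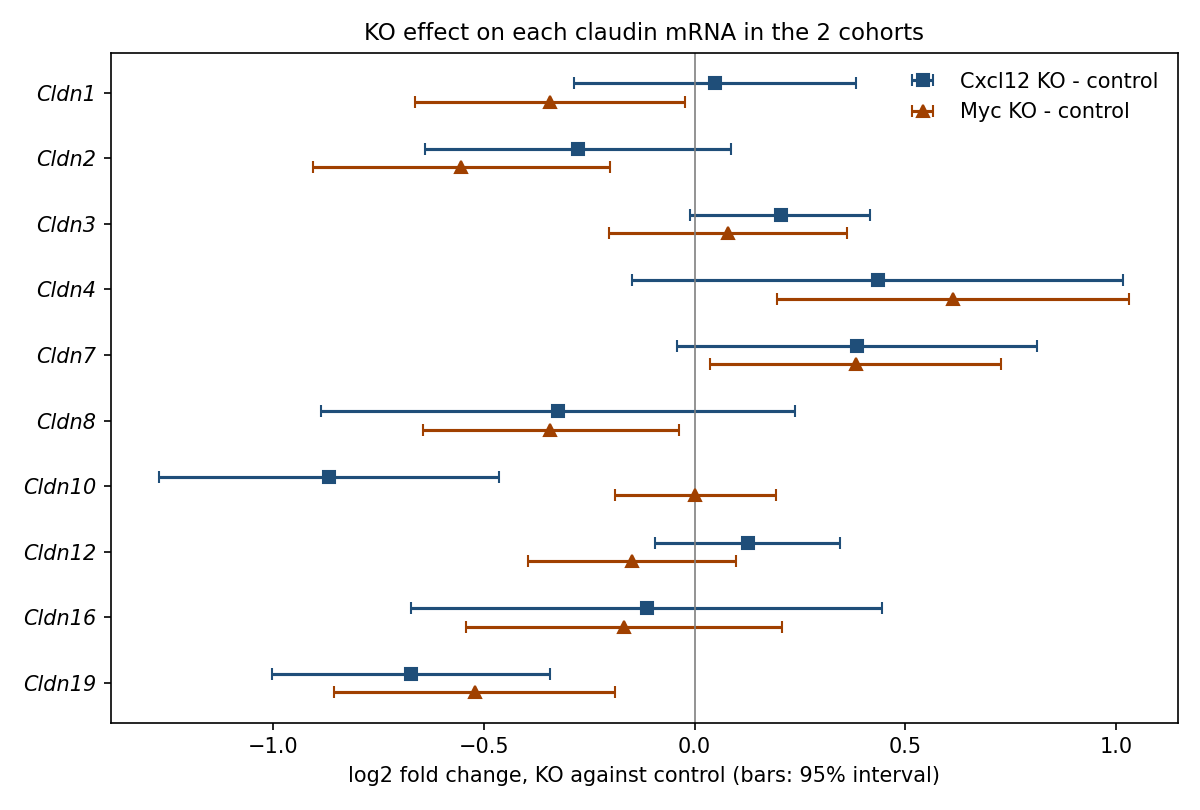
Log2 fold change of KO against control (horizontal axis) for each claudin (vertical axis) in the *Cxcl12* (squares) and *Myc* (triangles) cohort, with bars for the approximate 95% interval. The bars are a normal approximation from the SE, too narrow for so few kidneys, and do not stand for the edgeR test. The *Myc* cohort bar of *Cldn1* leaves out 0 although its unadjusted edgeR p was 0.0559. *Cldn10* stands at -0.87 in the *Cxcl12* cohort and at 0.00 in the *Myc* cohort, and *Cldn4* and *Cldn7* lie to the right of 0 in both.

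The second comparison asked the same of *Myc*. *Cldn2* was lower, and *Cldn4* higher, in the KO kidneys on average, but the groups overlapped for every claudin and 0 of 10 were called. *Cldn2* had 232, 311, 279.7, 247 and 251 CPM in *Myc* KO 1 to 5 and 454, 314, 286, 586 and 320.3 CPM in *Myc* control 1 to 5. Controls 1 and 4 were well above all KO kidneys, and KO 2 lay above control 3. The log2 fold change was -0.55 (SE 0.18, edgeR adjusted p = 0.120, exact permutation p = 0.0159 where 0.00794 is the smallest this design allows), with all 5 KO kidneys below the control mean. Without *Myc* control 4 it was -0.36 (edgeR adjusted p = 0.228). *Cldn4* had 562, 547, 650.3, 702 and 539 CPM in KO and 266, 416, 495, 241 and 562 CPM in control kidneys. The 5 KO kidneys were all above the control mean, and control 5 lay within their range. Its log2 fold change was 0.61 (SE 0.21, edgeR adjusted p = 0.136, exact permutation p = 0.0238).

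*Cldn7* followed *Cldn4*, with 119.8, 115, 124, 148 and 119.9 CPM in *Myc* KO and 67.6, 99.1, 115, 69.6 and 134 CPM in *Myc* control kidneys. Controls 1 and 4 were again the lowest, and the log2 fold change was 0.38 (SE 0.18, edgeR adjusted p = 0.228). In the same controls 1 and 4 the injury markers summed to 5301 and 5235 CPM and the leukocyte markers to 101.5 and 132 CPM, the lowest values of the 5 controls on both lists. Their part in the *Cldn4* and *Cldn7* values was not tested. *Cldn8* had 32.8, 37.8, 33.7, 35.0 and 55.6 CPM against 49.0, 44.2, 56.4, 39.3 and 60.9 CPM, with KO 5 alone among the controls' range and a log2 fold change of -0.34 (edgeR adjusted p = 0.223). *Cldn3* ranged from 26.6 to 43.1 CPM in KO and 27.04 to 37.4 CPM in control kidneys.

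In the thick ascending limb, *Cldn19* had 11.4, 13.3, 18.05, 12.1 and 16.0 CPM in *Myc* KO and 16.8, 15.1, 21.7, 22.8 and 26.8 CPM in *Myc* control kidneys. The 2 lowest controls lay within the range of the KO kidneys, and the log2 fold change was -0.52 (SE 0.17, edgeR adjusted p = 0.121, exact permutation p = 0.0397). *Cldn10* did not move with it. It had 32.3, 36.5, 33.3, 41.7 and 37.9 CPM against 31.3, 36.0, 37.8, 36.0 and 42.3 CPM, with a log2 fold change of 0.00 and a 95% interval from -0.19 to 0.19. *Cldn16* had 6.10 to 7.64 CPM against 5.11 to 11.2 CPM and a log2 fold change of -0.17. *Cldn1* ranged from 28.3 to 53.4 CPM against 39.3 to 60.4 CPM and *Cldn12* from 76.9 to 99.9 CPM against 84.2 to 128 CPM, with log2 fold changes of -0.34 and -0.15. Apart from *Cldn2*, *Cldn4* and *Cldn19*, the unadjusted exact permutation p-values in this cohort ran from 0.0794 to 0.9365.

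Of all genes tested in the *Myc* cohort, edgeR called 246 of 14936 (1.65%) and none of the 10 claudins, all of which were tested. The claudins with an unadjusted p under 0.05 were 5 of 10, *Cldn4* and *Cldn7* higher and *Cldn2*, *Cldn8* and *Cldn19* lower, against 21.9% of all genes. The groups did not overlap for 0 of 10 claudins, against 6.25% of genes. DESeq2 called *Cldn2*, *Cldn4* and *Cldn19* (adjusted p = 0.0377, 0.0444 and 0.0450) among 7.63% of genes, limma-voom called 0 claudins among 1.44% of genes, and edgeR called *Cldn2* when *Myc* control 3 was left out (adjusted p = 0.0492). In the 4 kidneys of the deeper group and the 6 others, the log2 differences were -0.44 and -0.57 for *Cldn2*, 0.71 and 0.65 for *Cldn4*, and -0.17 and -0.78 for *Cldn19*. They were -0.05 and -0.59 for *Cldn1* and -0.28 and -0.43 for *Cldn8*. *Cldn16* went opposite ways without overlap, 0.36 in the deeper group (2 against 2 kidneys) and -0.47 in the others (3 against 3). *Cldn2* did not overlap in either set, *Cldn4* and *Cldn7* not in the deeper group, and *Cldn8* and *Cldn19* not in the others. The share of all genes without overlap in such small sets is not given here.

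Whether the KO effect on a claudin differed between the cohorts was tested over all 18 kidneys. *Cldn10* had the largest difference of the 10, with a log2 value of 0.86 for the *Myc* minus the *Cxcl12* effect (SE 0.23, edgeR adjusted p = 0.114). By edgeR 0 of 10 claudins and 11 of 15903 genes (0.0692%) were called. At an unadjusted p under 0.05 there was 1 of 10, *Cldn10*, against 11.4% of genes, and DESeq2 called *Cldn10* (adjusted p = 0.0279) among 1.97%. The next in size were *Cldn1* (-0.40), *Cldn2* (-0.28) and *Cldn12* (-0.28). The effects on *Cldn4*, *Cldn19*, *Cldn3*, *Cldn16*, *Cldn8* and *Cldn7* differed by 0.17, 0.15, -0.13, -0.06, -0.02 and -0.01. The 95% interval for *Cldn7* ran from -0.60 to 0.58, so that sizeable differences in either direction remain possible.

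The injured controls of the 2 lines were then compared with each other, where line, litter and any difference in handling cannot be told apart. *Cldn10* was the claudin called, higher in the *Cxcl12* than in the *Myc* controls (72.7, 56.9 and 49.4 CPM against 31.3 to 42.3 CPM). The groups did not overlap, and the log2 difference was 0.70 (SE 0.17, edgeR adjusted p = 0.0405), 1.62-fold, with an exact permutation p of 0.0179. Thus 1 of 10 claudins was called, against 316 of 15903 genes (1.99%), and *Cldn10* was also the 1 claudin called by DESeq2 (4.99% of genes) and limma-voom (1.57%). The call was lost with counts of 1 strand (adjusted p = 0.0938) and without the deeper group (0.0885). It was also lost without *Cxcl12* control 1 (log2 difference 0.54, adjusted p = 0.238), control 2 (0.114) or control 3 (0.0519), *Myc* KO 2 (0.0512) or 3 (0.0507), or *Myc* control 1 (0.0566), 2 (0.0858) or 3 (0.0847).

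*Cldn19* was likewise higher in all 3 *Cxcl12* controls than in the 5 *Myc* controls (log2 0.61, edgeR adjusted p = 0.103), and *Cldn4* lower in all 3 (log2 -0.82, edgeR adjusted p = 0.161). With *Cldn10* these were 3 of 10 claudins without overlap, against 11.7% of genes. At an unadjusted p under 0.05 there were 5 of 10, against 17.7% of genes. The log2 differences of *Cldn2* and *Cldn7* were 0.57 and -0.59 with overlapping groups, and *Cldn2* passed without *Myc* control 4 (edgeR adjusted p = 0.0307). The injury markers summed to 3206 to 4565 CPM in *Cxcl12* and 5235 to 7135 CPM in *Myc* controls, the proximal tubule markers to 5002 to 5646 and 3789 to 4686 CPM, and the leukocyte markers to 70.2 to 71.0 and 101.5 to 253 CPM. All these sums were separate between the control groups. Against their sums, the injury markers *Havcr1* (log2 0.30) and *Krt8* (0.25) and the leukocyte marker *Cd68* (0.19) were higher in the *Cxcl12* controls. The part of the sums in the claudin differences was not tested. The *Cxcl12* KO effect on *Cldn10* uses the same controls, and the *Cxcl12* KO kidneys (22.2 to 43.2 CPM) lay around the *Myc* controls.

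Some claudins varied together between kidneys. After each gene was centred on its genotype group, 7 of 45 pairs had an r beyond 0.7 in either direction, and *Cldn1* and *Cldn3* reached no more than 0.40 and 0.34 in size with any other claudin. *Cldn4* and *Cldn7* were correlated over the 18 kidneys (Pearson r = 0.97, Spearman rho = 0.91). Both ran against *Cldn12* (r = -0.90 and -0.90) and *Cldn2* (-0.73 and -0.76), and *Cldn2* and *Cldn12* ran together (0.72). *Cldn8* and *Cldn10* also ran together (r = 0.73, rho = 0.74), with an r of 0.835 within the *Cxcl12* but 0.441 within the *Myc* cohort. *Cldn16* and *Cldn19* had an r of 0.59. Without the 2 kidneys farthest from the median, *Cldn8* and *Cldn10* kept an r of 0.74, whereas the other 5 pairs among *Cldn8*, *Cldn10*, *Cldn16* and *Cldn19* went from 0.41 to 0.59 down to 0.23 to 0.40. Within cohorts the r of *Cldn4* and *Cldn7* was 0.97 (*Cxcl12*) and 0.98 (*Myc*), and it was 0.96 without the 2 kidneys farthest from the median. That of *Cldn2* and *Cldn4* went from -0.73 to -0.51 without them, and that of *Cldn2* and *Cldn12* from 0.72 to 0.555. The same kidneys made both ends of these relations. *Myc* controls 1 and 4 were low in *Cldn4* and *Cldn7* and high in *Cldn2* and *Cldn12*, while *Cxcl12* KO 3 was the reverse in its group. All values of a kidney share a library, so these correlations are given as description.

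**Figure D3:**
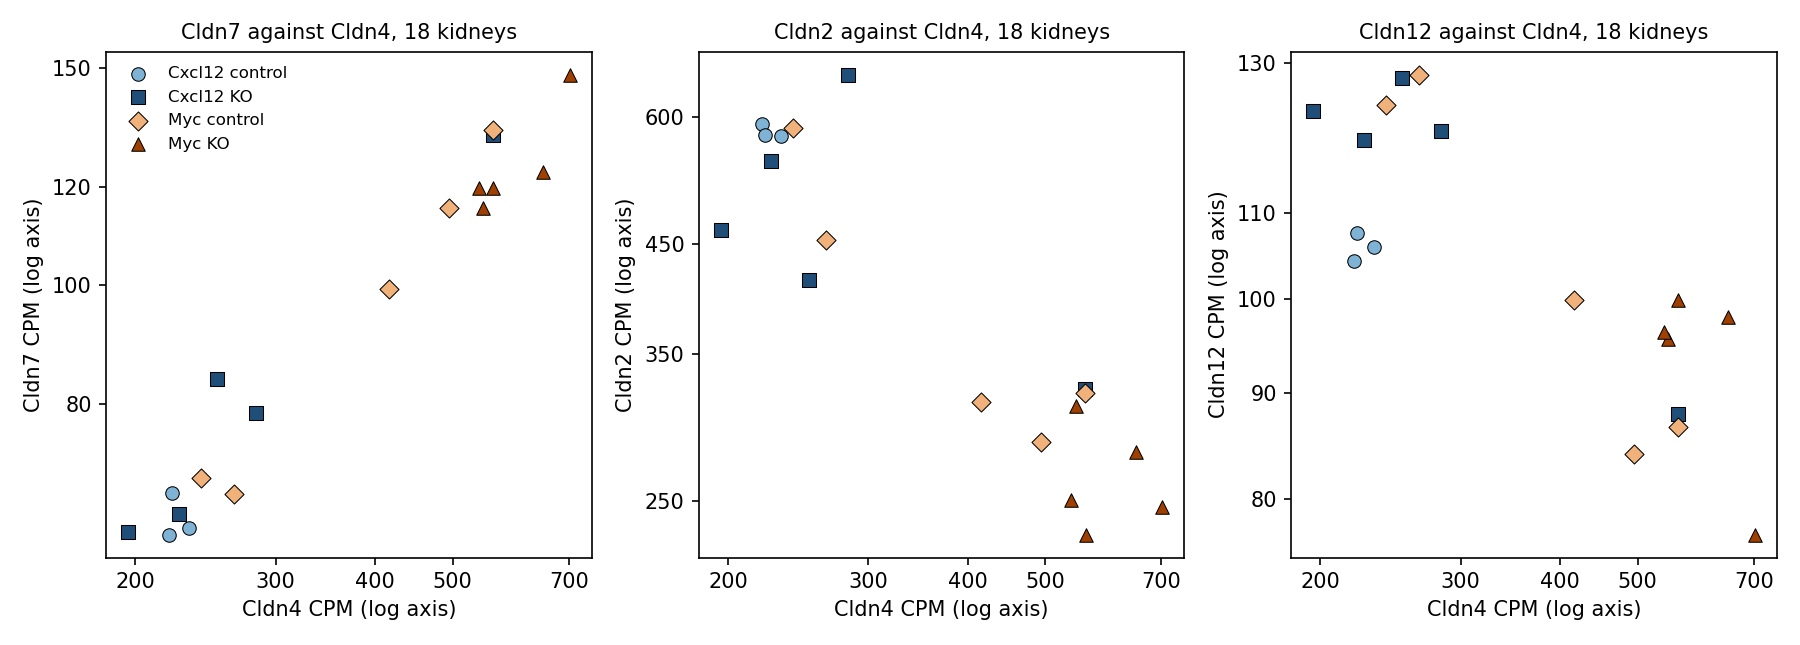
CPM of *Cldn7*, *Cldn2* and *Cldn12* (vertical log axes) against CPM of *Cldn4* (horizontal log axes), with 1 point for each of the 18 kidneys, by group. *Cldn7* climbs with *Cldn4* while *Cldn2* and *Cldn12* go down, and *Cxcl12* KO 3 (562 CPM of *Cldn4*) lies beside *Myc* control 5.

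**Figure D4:**
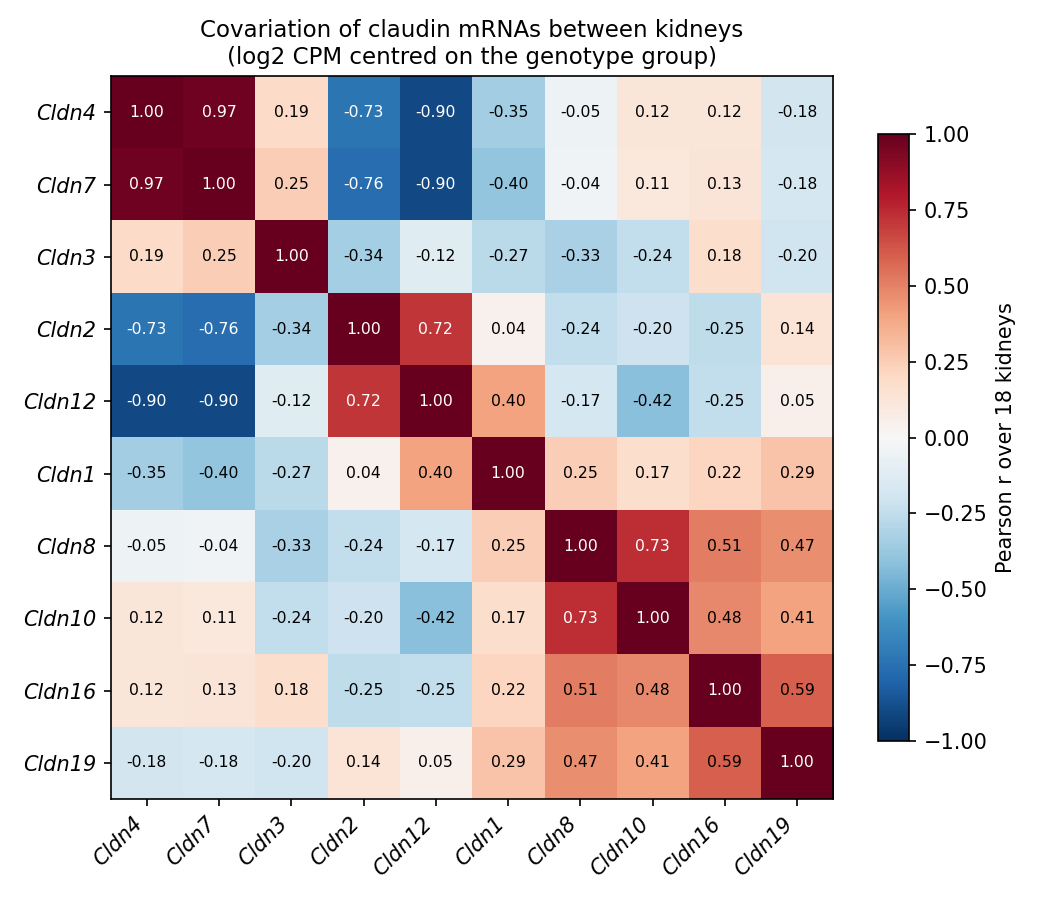
Pearson r over 18 kidneys between log2 CPM of each claudin pair, centred on the genotype group, with red for positive and blue for negative r. *Cldn4* and *Cldn7* form a positive block (0.97) that is negative against *Cldn2* and *Cldn12*, and *Cldn8*, *Cldn10*, *Cldn16* and *Cldn19* have positive r with each other (0.41 to 0.73).

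Per kilobase, the ratio of *Cldn4* to *Cldn2* sets a distal sealing claudin against the proximal pore. This ratio was chosen after its genes' values had been seen and is not tested. It was 0.682, 0.706 and 0.743 in the *Cxcl12* controls and 0.773, 0.765, 3.18, 0.784 and 1.12 in *Cxcl12* KO 1 to 5. In *Myc* KO 1 to 5 it was 4.44, 3.22, 4.26, 5.20 and 3.93, and in *Myc* control 1 to 5 it was 1.07, 2.43, 3.17, 0.755 and 3.21. The ratio thus lay in a narrow band in the *Cxcl12* controls and spread widely in the *Myc* controls, of which the highest all but reached the lowest *Myc* KO kidney.

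The genes whose pattern was most like each claudin were sought among 13749 genes with a mean of at least 1 CPM, by r over the 18 kidneys on centred log2 CPM. *Cldn16* came closest to *Umod* (r = 0.87), the abundant uromodulin gene of the thick ascending limb, followed by *Mnat1* (0.81). *Cldn4* came closest to *Fes* (0.96) and *Lrfn4* (0.95), and *Cldn7* to *Sh3bgrl3* (0.96) and *Lrfn4* (0.96), so that the pair shared a neighbour. *Cldn2* came closest to *Akap1* (0.92) and *Dnaja3* (0.92), genes of mitochondrial proteins, and *Cldn12* to *Dcun1d4* (0.95) and *Arl8b* (0.94). *Cldn8* came closest to *Scd2* (0.94), a fatty acid desaturase, and *Prkar2b* (0.89), and *Cldn10* to *Acsl5* (0.86), an acyl-CoA synthetase, and *Arhgef6* (0.86). The remaining pairs were *Cldn1* with *Zfp938* (0.90) and *Zfp960* (0.89), *Cldn3* with *Slc25a33* (0.84) and *Gps2* (0.83), and *Cldn19* with *Armcx3* (0.81) and *E130307A14Rik* (0.81). Each is the top of many genes, which makes such values high.

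Claudins are held in place by other junction proteins, and 30 genes of occludin-type proteins, JAMs, scaffolds and polarity complexes were followed beside them. By edgeR 0 of 30 were called in either cohort, beside 0% (*Cxcl12*) and 1.65% (*Myc*) of all genes. At an unadjusted p under 0.05 there were 7 of 30 in each (5 higher and 2 lower in both), beside 13% and 21.9% of all genes. Their median log2 fold change was 0.01 for *Cxcl12* and 0.09 for *Myc* KO, beside 0.00 over all genes, and that of the 10 claudins was -0.03 and -0.16. In the *Cxcl12* cohort the smallest p-values were those of *Jam2*, a junctional adhesion molecule (51.8 ± 4.7 CPM, n = 5, against 38.7 ± 3.0 CPM, n = 3, log2 0.42, edgeR adjusted p = 0.108), the tricellular genes *Ildr2* (log2 -0.37) and *Marveld2* (0.30), and *Cxadr* (0.36). In the *Myc* cohort they included those of *Ybx3*, a transcription factor that binds the scaffold ZO-1 (162 ± 7.2 CPM against 211 ± 25.5 CPM, n = 5 each, log2 -0.37, edgeR adjusted p = 0.0702), the scaffold *Magi3* (0.30) and the tricellular *Lsr* (-0.28). DESeq2 called 1 of 30 in the first, *Jam2*, beside 2.34% of all genes. In the second it called 3 of 30, *Ybx3* and *Magi3* among them, beside 7.63% of all genes. Between the control groups 1 of 30 was called, beside 1.99% of all genes. This was *Ildr2*, 0.57 higher on the log2 scale in the *Cxcl12* controls (edgeR adjusted p = 0.0274). The call was lost with counts of 1 strand, without *Cxcl12* control 1, 2 or 3, and without *Myc* control 2, 3 or 5.

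Of 23 further annotated claudin genes, 15 had a count, and 6 passed the filter in the *Cxcl12* cohort and 5 in that of *Myc*, with 0 called by edgeR and 1 in each at an unadjusted p under 0.05, beside 13% and 21.9% of all genes. *Cldn5*, the endothelial claudin, had log2 fold changes of 0.38 and 0.47, *Cldn6* of -0.13 and 0.70, *Cldn15* of -0.15 and -0.03, and *Cldn23* of 0.43 and 0.40. *Cldn11* had -2.16 and -0.92 at low counts, and *Cldn14*, a limb claudin known to oppose *Cldn16*, was tested in the *Cxcl12* cohort alone (-0.06). Together these genes reached 34.3 to 56.2 CPM per kidney, against 1037 to 1330 CPM for the 10 claudins described.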

How the data were processed

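RNA from 18 whole kidneys was sequenced, and raw gene counts were deposited by the authors, who made them with Trimmomatic 0.32 and STAR 2.4.0 on GRCm38 and not normalised. The gene annotation they used is not given in the sources used here. The column that ignores the strand was used. Genes were named from GENCODE vM21 (45143 of 45706), whose exons gave the lengths.

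Low genes were removed per cohort by filterByExpr, and TMM-scaled counts were tested in R 4.3.3 by edgeR 4.0.16 (quasi-likelihood F-test), with Benjamini-Hochberg adjustment over all genes and a threshold of 0.05. The difference between cohorts and the control groups were fitted over all 18 kidneys. CPM used TMM over all kidneys, and log2 CPM for correlations and exact permutations a prior count of 2. Alternatives used limma 3.58.1, DESeq2 1.42.0, other scalings and filters, 1 strand, the deeper group, a replicate block and leaving out each kidney. Figures used Python 3.11.15 and matplotlib 3.10.9. The fits were tested on simulated data.

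Members and lists were chosen with earlier results of these data known. Named are the claudins, partners that were called or had the 4 smallest p-values in a cohort, and the 2 genes most like each claudin. The values of 1 partner gene named by this rule are not reported here. Ages and doxycycline times come from the study's methods. All 33 pairs of kidneys within groups differed beyond counting noise. The labels do not say that kidneys came from separate litters, so p-values measure the spread between these samples.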

Additional observations from a re-analysis of the deposited data

Results flagged for a closer look

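In groups of 5 kidneys, a kidney is listed here when its gap to the next one takes up over 0.71 of the group's range. This held for 6 of 30 groups tested. The cut is set to be passed by about 1 in 20 groups of independent, normally distributed values. The claudins of a kidney share a library and several varied together, so the 6 cannot be set against that rate. The share of all genes beyond the cut is not given here. *Cldn4* in *Cxcl12* KO 3 was 561.7 CPM, with the other 4 between 196 and 283 CPM, and *Cldn12* in the same kidney was 87.95 CPM, with the others between 119 and 128 CPM. In *Myc* KO 4, *Cldn7* was 148.1 CPM against 115 to 124 CPM in the others, and *Cldn12* was 76.9 CPM against 95.6 to 99.9 CPM. *Cldn8* was 75.52 CPM in *Cxcl12* KO 1, with 27.1 to 37.7 CPM in the others, and 55.59 CPM in *Myc* KO 5, with 32.8 to 37.8 CPM in the others. *Cldn12* was thus low in both kidneys listed for a high *Cldn4* or *Cldn7*. *Cxcl12* KO 3 had 6572 CPM of tubular injury markers, the highest of its group, and *Cxcl12* KO 1 had 4636 CPM of thick ascending limb and 819 CPM of collecting duct markers, also the highest. The part of these sums in the values was not tested.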

How the results depend on the processing

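Of 450 refits of single claudins under alternatives other than leaving out a kidney, 415 kept direction and side of the threshold, 13 gained a call, 2 lost one and 20 changed sign, 0 of these with a call. The claudins called in the *Cxcl12* cohort (0) became 2 with no filter, 2 with DESeq2, 2 with the deeper group as a covariate, 1 without the deeper group and 1 in the joint fit of 18 kidneys, and all genes called (0) became 214, 355, 123, 80 and 25. Partner genes called became 1 with DESeq2. In the *Myc* cohort the claudins became 3 and the partners 3 with DESeq2, the partners 2 with the covariate and 2 in the joint fit, and all genes (246) became 1139 with DESeq2, 8 without the deeper group, 954 with the covariate and 683 in the joint fit. For the difference between the KO effects, claudins became 1 with DESeq2, and all genes (11) became 6 with upper-quartile scaling, 314 with DESeq2, 3 with limma-voom, 7 with 1 strand, 44 without the deeper group and 133 with the covariate. Between the controls, claudins (1) became 0 with 1 strand, 0 without the deeper group and 2 with the covariate, and all genes (316) became 794 with DESeq2. The cause was not tested.

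Changes of sign were small. *Cldn1* in the *Cxcl12* cohort was -0.13 without the deeper group and -0.13 with the covariate, and 0.089 between the controls with the covariate. *Cldn10* in the *Myc* cohort was -0.012 with upper-quartile scaling, -0.007 with no filter, -0.081 with 1 strand, -0.031 without the deeper group and 0.00 in the joint fit. For the difference between the KO effects, *Cldn4* was -0.12 without the deeper group, *Cldn7* was 0.009 with upper-quartile scaling, 0.097 with limma-voom and 0.027 with 1 strand, *Cldn8* was 0.053 with limma-voom, 0.28 without the deeper group and 0.17 with the covariate, and *Cldn16* was 0.025 with limma-voom and 0.11 with 1 strand. *Cldn8* between the controls was -0.025 with 1 strand.

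Same-numbered KO and control kidneys deviated together in some pairs but not in others (r from -0.03 to 0.13 in the *Cxcl12* and -0.21 to 0.40 in the *Myc* cohort). Their mean r was 0.067 and 0.053. For kidneys with different numbers it was -0.017 (from -0.131 to 0.191) and -0.011 (from -0.523 to 0.48). With the replicate number as a block, 0 claudins were called in either cohort, all genes called were 0 and 18, and 1 for the difference between the KO effects, *Cldn16* was 0.16 in the *Cxcl12* cohort and *Cldn7* 0.098 for the difference.

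Leaving out each kidney in turn, all genes called ran from 0 to 15 and claudins and partners called from 0 to 0 in the *Cxcl12* cohort. Log2 values that changed sign ran for *Cldn1* from -0.051 to 0.19 and *Cldn16* from -0.33 to 0.20. All genes called ran from 21 to 876, claudins called ran from 0 to 1 and partners called ran from 0 to 2 in the *Myc* cohort. Log2 values that changed sign ran for *Cldn3* from -0.032 to 0.16, *Cldn10* from -0.057 to 0.062. All genes called ran from 1 to 75 and claudins called ran from 0 to 0 for the difference between the KO effects. Log2 values that changed sign ran for *Cldn7* from -0.12 to 0.23, *Cldn8* from -0.18 to 0.31, *Cldn16* from -0.38 to 0.16. All genes called ran from 49 to 611 and claudins called ran from 0 to 2 between the controls. Log2 values that changed sign ran for *Cldn1* from -0.16 to 0.055, *Cldn3* from -0.15 to 0.005, *Cldn8* from -0.12 to 0.13, *Cldn12* from -0.056 to 0.094.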
